A study of Homo sapiens with 6 samples.

Results

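Genes of glucose uptake, glycolysis, lactate export and the response to low oxygen were examined in SW480, an established human colorectal cancer cell line, with and without knockdown of HPSE. HPSE encodes heparanase, the endoglycosidase that cuts heparan sulfate chains. The members were 40 genes listed by symbol, 21 in an enzyme group (glucose entry, the glycolytic enzymes and lactate export) and 19 in a HIF target group (other targets of hypoxia-inducible factor, and its subunits). Of the 40, 32 had a row in a table of 59192 features. Bulk RNA was sequenced from 3 HPSE-knockdown libraries, titled SW480-45, and 3 SW480-NC control libraries. Both lines carried lentiviral Cas9 with a guide RNA and were selected with puromycin, the guide being directed at HPSE in the knockdown line and a control guide in SW480-NC. Whether the knockdown line was 1 clone or a pool was not given in the sources used here, and no low-oxygen treatment was named for any library. Only 1 knockdown line was sequenced, so the knockdown and the line that carries it cannot be told apart.

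Glycolysis splits glucose into pyruvate in the cytosol, and lactate dehydrogenase then converts pyruvate to lactate, which monocarboxylate transporters export. Tumour cells often run this route at a high rate even with oxygen present. When oxygen is scarce, prolyl hydroxylases no longer mark the HIF alpha subunits for destruction, and HIF dimers raise transcription of many glycolytic genes through hypoxia response elements, whose core letters are ACGTG or GCGTG. Many enzymes have several isoenzymes, of which HIF classically induces some, such as LDHA and ALDOC, more than others.

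The promoters of 4 members that the results turn on are shown so that the presence or absence of the core letters ACGTG beside their start can be read. LDHA and LDHB form the lactate dehydrogenase pair, ALDOC had the highest log2 difference among the members, and SLC2A1 had the lowest adjusted p. Each is the 250 bases before the RefSeq start, written 5′ to 3′ on the strand of the gene, on GRCh38.p14: LDHA at chr11:18394313-18394562 on the plus strand, and on the minus strand LDHB at chr12:21657843-21658092, ALDOC at chr17:28576896-28577145 and SLC2A1 at chr1:42958869-42959118. Capitals mark ACGTG on either strand, and CACGTG, which holds ACGTG on both strands, is marked as 1 run.
LDHA: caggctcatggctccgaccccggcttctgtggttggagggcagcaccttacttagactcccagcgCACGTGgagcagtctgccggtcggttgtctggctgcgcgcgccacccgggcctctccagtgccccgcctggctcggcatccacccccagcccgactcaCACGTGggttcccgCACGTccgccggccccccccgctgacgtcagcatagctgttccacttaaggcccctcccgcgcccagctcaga
LDHB: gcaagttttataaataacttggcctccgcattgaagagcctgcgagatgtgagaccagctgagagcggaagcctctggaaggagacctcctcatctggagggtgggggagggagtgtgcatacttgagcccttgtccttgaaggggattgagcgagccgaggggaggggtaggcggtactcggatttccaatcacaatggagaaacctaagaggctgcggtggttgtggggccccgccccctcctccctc
ALDOC: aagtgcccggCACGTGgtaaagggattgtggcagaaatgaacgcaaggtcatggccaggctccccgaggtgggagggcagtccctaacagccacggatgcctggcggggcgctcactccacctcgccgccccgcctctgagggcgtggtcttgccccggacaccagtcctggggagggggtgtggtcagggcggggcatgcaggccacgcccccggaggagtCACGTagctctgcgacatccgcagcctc
SLC2A1: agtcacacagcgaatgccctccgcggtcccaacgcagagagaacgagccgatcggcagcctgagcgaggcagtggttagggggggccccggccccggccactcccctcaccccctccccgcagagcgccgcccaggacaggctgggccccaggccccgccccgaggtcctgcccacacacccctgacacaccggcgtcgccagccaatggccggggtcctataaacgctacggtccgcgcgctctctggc
LDHA had 3 such runs, beginning 185, 87 and 73 bases before its start, and ALDOC had 2, at 240 and 28 bases. The windows of LDHB and SLC2A1 held none, which says only that these letters are not in the window. The RefSeq promoter table held 36 of the 40 members, and SLC2A3, SLC16A1, BNIP3L and NDRG1 had no entry. ACGTG, searched on both strands, was in 8 of 19 promoters of the enzyme group (42.1%) and 6 of 17 of the HIF target group (35.3%), beside 18.5% of all 35116 promoters of that length. The first entry listed was used for each member, while the shares of all promoters count every entry. GCGTG was in 26.3% and 52.9% of the 2 groups and 32.2% of all promoters. CACGTG, a subset of the ACGTG matches, was in 15.8%, 11.8% and 6.34%.

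The libraries held 33221323 to 39802365 reads. HPSE was at 136, 172 and 146 normalized counts in the knockdown libraries and 269.9, 295 and 246 in SW480-NC, so the groups did not overlap. Its log2 difference was −0.83 (SE 0.14), 0.561-fold, with an adjusted p of 0.0547 by limma. Colon epithelial identity was read from 10 markers, of which 7 had a row. Their summed level was 118535 to 127522 in the knockdown and 133466 to 142337 in SW480-NC. KRT8, with a mean of 75512 in the knockdown and 87410 in SW480-NC, made up most of these sums. EPCAM and KRT8 were lower in every knockdown library, VIL1 was higher, and KRT19, LGALS4 and CDX2 overlapped. EPCAM, KRT8, KRT19, VIL1 and LGALS4 were abundant, CDX2 was low at 19.0 to 40.3, and CDH17 was at 0 in 5 of 6 libraries. The 6 leukocyte, endothelial and fibroblast markers with a row, out of 10, summed to 381 to 544 in the knockdown and 330.3 to 399 in SW480-NC, mostly COL1A1 and ACTA2. The part of these marker differences in the results was not tested. In bulk RNA, fewer cells expressing a gene and less of its RNA per cell cannot be told apart.

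The members lay on both sides of the control level, 17 above and 13 below in log2 difference (49.3% of all features were above). The lowest were SLC2A1, LDHA and SLC16A1, at 0.766-fold, 0.739-fold and 0.732-fold of the control level, and the highest were ALDOC and BNIP3L, at 1.46-fold and 1.36-fold. The enzyme group did not move together, with 9 above and 8 below. TPI1 and PKM were at 1.25-fold and SLC16A3 at 1.12-fold, with overlapping groups. Of the 30 members tested, 0 had an adjusted p under 0.05 by limma, beside 0.802% of the 21703 features tested (0.332% higher and 0.47% lower) and 1.42% of those averaging at least 1000 normalized counts, a level that 24 of the 30 members reached. At an unadjusted p under 0.05 there were 8 (26.7% of the members, beside 16.2% of all features and 21.9% of the abundant ones): ALDOC, BNIP3L and CA9 higher, beside 8.1% of all features, and SLC2A1, LDHA, SLC16A1, HK2 and PGAM1 lower, beside 8.15%. Of these, SLC2A1, LDHA, SLC16A1, ALDOC and BNIP3L stayed under that p in 18 of 18 alternative settings, CA9 in 13, HK2 in 12 and PGAM1 in 9. On the recovered reads edgeR called 0 at adjusted p (0.627% of all features), and DESeq2 called 4 (3.48%), SLC2A1, SLC16A1, ALDOC and BNIP3L. On simulated data DESeq2 made a larger share of false calls than limma or edgeR, which does not show how many of these 4 are false. With 1 library left out, the log2 difference moved by over 1.5 times or changed sign for 22 of the 30 members and not for 8, which were SLC2A1, HK2, ALDOC, PGAM1, LDHA, SLC16A1, PFKFB3 and BNIP3L. The 3 knockdown libraries lay wholly above or below the 3 control libraries for 8 members, 26.7%, which is near the 23.4% of all features and the 29.7% of the abundant ones. By direction, 3 were higher and 5 lower, beside 11.4% and 12% of all features. The level of 1000 was chosen after the values were seen. The median absolute log2 difference was 0.17 over the members and 0.20 over all features. Most of all features were scarcer than 1000, and no such median was taken for the abundant ones, so these medians do not compare genes of like level.

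**Figure D1:**
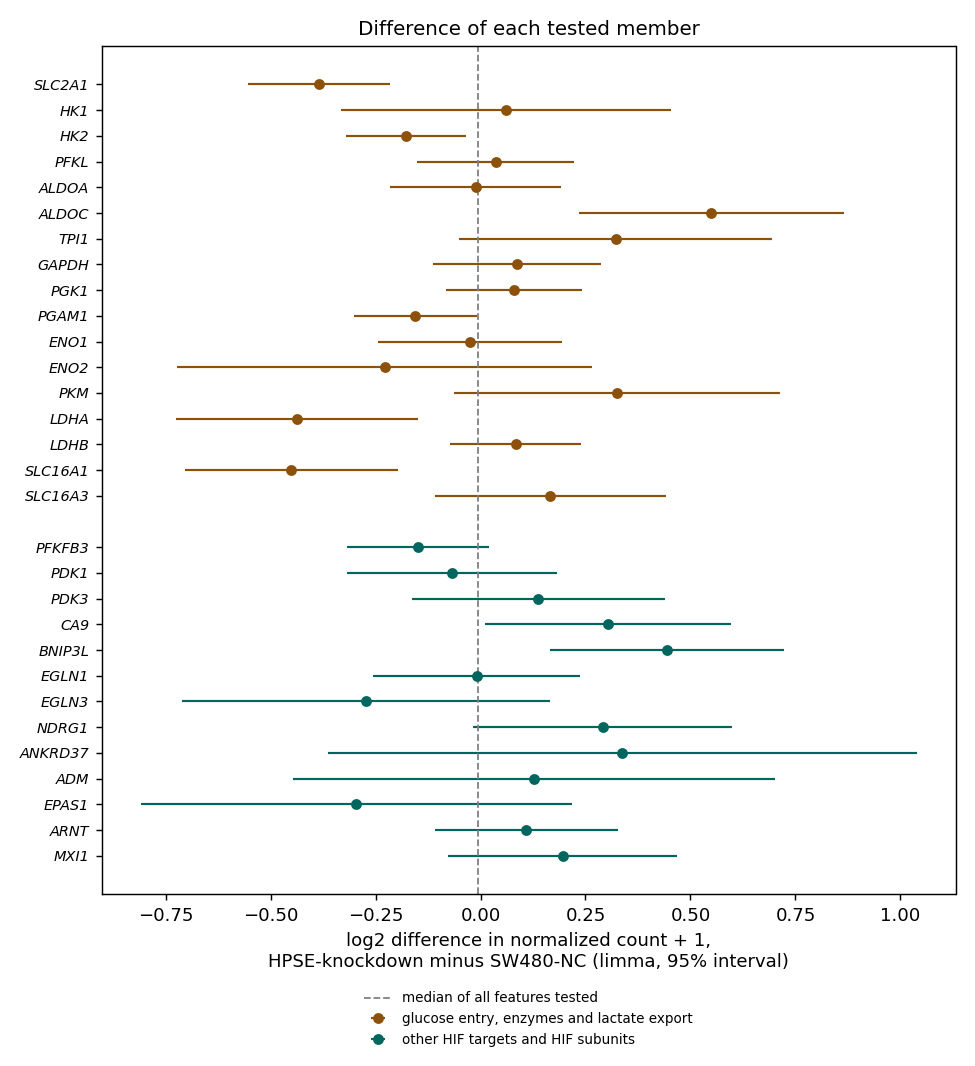
Log2 difference of each tested member, HPSE-knockdown minus SW480-NC, with its 95% confidence interval from limma. The enzyme group runs from −0.45 for SLC16A1 to 0.55 for ALDOC and the HIF target group from −0.30 for EPAS1 to 0.44 for BNIP3L, and no member has an adjusted p under 0.05.

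In the enzyme group, 18 of 21 genes had a row and 17 passed the minimum mean of 10 normalized counts. Of these, 9 were above 0 and 8 below in log2 difference, with a median of 0.036 against −0.0048 over all features. At an unadjusted p under 0.05 by limma, 1 was higher and 5 lower (35.3%, beside 16.2% of all features and 21.9% of the abundant ones). Groups did not overlap for 1 higher and 4 lower (29.4%, beside 23.4% of all features and 29.7% of the abundant ones). Glucose enters through SLC2A1 (GLUT1), the main glucose transporter of proliferating cells, at chr1:42925375-42959176 in GENCODE 29. SLC2A1 was at 15046, 16096 and 16116 normalized counts in the knockdown and 19656, 19552 and 22620.0 in SW480-NC. Every knockdown library was below every control library. The log2 difference was −0.39 (SE 0.07; adjusted p = 0.0729 by limma). The adjusted p was under 0.05 in 3 of 18 alternative settings and ran from 0.0112 (DESeq2) to 0.25 (without knockdown replicate 1). SLC2A3 (GLUT3), a second glucose transporter, lay between 0 and 4.22 and was not tested.

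Hexokinases trap glucose in the cell as glucose 6-phosphate. HK2, the isoenzyme often raised in tumours, was at 3769, 3915 and 3983 in the knockdown and 4335, 4417 and 4447 in SW480-NC. These narrow groups did not overlap, and the log2 difference was −0.18 (SE 0.06; adjusted p = 0.226 by limma). HK1, the widely expressed isoenzyme, spanned 4859 to 6888 in the knockdown and 4588 to 6773 in SW480-NC. Per kilobase of exon (all annotated exons of a gene joined), the mean of HK1 was 946 normalized counts in the knockdown and 909 in SW480-NC, and that of HK2 was 641 and 725. PFKL, the liver-type phosphofructokinase of the committed step, was at 3357 to 3757 and 3349 to 3775, so the ranges lay on top of each other. GPI, PFKM and PFKP had no row of their own and were not analysed here.

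Aldolase splits fructose 1,6-bisphosphate. ALDOA, the abundant isoenzyme, was at 15440.1 to 17754 in the knockdown and 15895 to 18910 in SW480-NC. ALDOC, the isoenzyme best known from brain, at chr17:28573115-28577264, was at 598, 685 and 719.8 in the knockdown and 384, 496 and 492 in SW480-NC. All 3 knockdown libraries were above the controls, by 0.55 in log2 (SE 0.14; adjusted p = 0.124 by limma, and 0.0197 with DESeq2 to 0.325 over 18 alternatives, of which DESeq2 alone passed). Per kilobase of exon, ALDOC averaged 228 and 156 normalized counts, far under the 4289 and 4331 of ALDOA.

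In the lower pathway, GAPDH, which makes NADH while oxidising glyceraldehyde 3-phosphate, was at 114388, 127569 and 112023 in the knockdown and 103307, 105081 and 125526 in SW480-NC. Its log2 difference was 0.088 (SE 0.09). ENO1, the enolase of most tissues, was at 67514, 73333 and 65172 and at 64450, 65224 and 80878. All knockdown libraries of GAPDH lay above SW480-NC replicates 1 and 2, and those of ENO1 lay above replicate 1 and below replicate 3. TPI1, which interconverts the 2 triose phosphates, was at 23490, 26331 and 23154 in the knockdown and 16694, 17042 and 25768 in SW480-NC. PKM, the pyruvate kinase of most tumours, was at 45233, 44473 and 39696 and at 36094, 26034 and 43270. For both, the groups overlapped only through SW480-NC replicate 3, and the log2 differences were 0.32 (SE 0.16; adjusted p = 0.369) and 0.32 (SE 0.17; adjusted p = 0.384) by limma.

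PGK1, which makes ATP from 1,3-bisphosphoglycerate, spanned 29228 to 31101 in the knockdown and 26302 to 30972 in SW480-NC. PGAM1, the phosphoglycerate mutase, was at 13231, 14065 and 14286 in the knockdown and 14886, 15005 and 16427 in SW480-NC. Its groups did not overlap, with a log2 difference of −0.15 (SE 0.06; adjusted p = 0.288 by limma). ENO2, the enolase best known from neurons, was at 787, 1350.2 and 1402 in the knockdown and 1354, 1242 and 1424 in SW480-NC, so knockdown replicate 1 alone was low. Its log2 difference was −0.23, and 0.040 without that library.

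Lactate dehydrogenase is a tetramer of LDHA and LDHB subunits, LDHA favouring lactate formation and LDHB the reverse. LDHA, at chr11:18394388-18408425, was at 27205, 22342 and 22249 normalized counts in the knockdown and 33640.0, 27194 and 36656 in SW480-NC. The groups met at 1 point, knockdown replicate 1 lying just above SW480-NC replicate 2. The log2 difference was −0.44 (SE 0.12; adjusted p = 0.159 by limma). LDHB was at 38800, 37987 and 40690.3 in the knockdown and 34095, 37021 and 39923 in SW480-NC, overlapping groups. Per kilobase of exon, LDHA averaged 3854 in the knockdown and 5233 in SW480-NC, and LDHB 13127 and 12408. The joined exons span 6.21 kilobases for LDHA and 2.98 for LDHB, so this gap between the genes depends on the annotated isoforms.

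SLC16A1 (MCT1), a proton-linked lactate and pyruvate carrier at chr1:112911847-112957013, was at 6053, 7004 and 6507 in the knockdown and 9473, 9803 and 7585 in SW480-NC. All knockdown libraries were below all controls, by −0.45 in log2 (SE 0.11; adjusted p = 0.119 by limma, and 0.0195 to 0.322 over 18 alternatives, of which 2 passed). SLC16A3 (MCT4), the lactate exporter of highly glycolytic cells, was at 2261, 2193 and 1696 and at 1790, 1769 and 1880.0. SLC16A3 had its knockdown replicate 3 under every control and the other two knockdown libraries above every control.

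**Figure D2:**
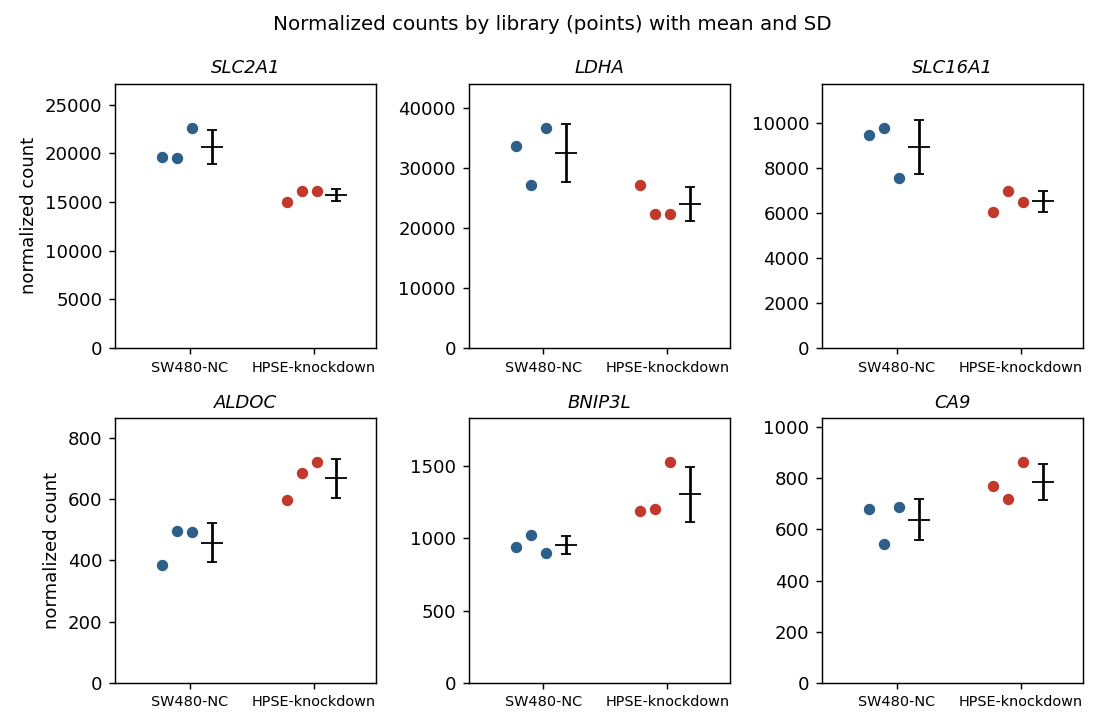
Normalized counts of 6 members in each library, with the mean and SD of 3 libraries per group, on axes that start at 0. The knockdown points of SLC2A1 and SLC16A1 lie below all control points, those of ALDOC, BNIP3L and CA9 lie above them, and LDHA overlaps by 1 library.

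Reads of several members cannot be assigned with certainty. Strand-specific counting was not stated, and SLC2A1, SLC16A1, HK2 and ALDOC share 128, 175, 7 and 296 exon bases with an antisense gene in GENCODE 29. The overlap was larger for ANKRD37 (909 bases), ALDOA (520), SLC16A3 (482), PDK1 (445) and GAPDH (422). PGK1, LDHB, ALDOA and SLC2A1 also share exon bases with a gene on the same strand. GAPDH, PGAM1, LDHA and PKM have 62, 13, 6 and 5 named pseudogenes that could take or give reads.

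The balance between isoenzymes was compared within each library, which removes the library scaling. These ratios are built from the counts given above, so they are no separate evidence. LDHA, SLC16A1 and ALDOC carried most of their ratio differences, while LDHB, SLC16A3 and ALDOA overlapped between groups. No share of pairs apart was taken over other genes. The LDHB/LDHA ratio of normalized counts was 1.43, 1.70 and 1.83 in the knockdown and 1.01, 1.36 and 1.09 in SW480-NC. All 3 knockdown values were above the controls, by 0.52 in log2, with SDs of 0.18 and 0.22 (n = 3 each). The SLC16A3/SLC16A1 ratio was 0.373, 0.313 and 0.261 in the knockdown and 0.189, 0.180 and 0.248 in SW480-NC, a log2 difference of 0.62 with groups apart. ALDOC/ALDOA was also apart, at 0.56 in log2. PDK3/PDK1, at 0.21 in log2, was only barely apart, with 0.227, 0.185 and 0.188 in the knockdown and 0.157, 0.179 and 0.184 in SW480-NC. For each of these 4 ratios the two-sided exact permutation p was 0.1, the smallest that 3 libraries against 3 allow, and 0.175 after adjustment over the 7 ratios tested. HK2/HK1, ENO2/ENO1 and EGLN3/EGLN1 overlapped between groups, at −0.24, −0.20 and −0.26 in log2, with exact permutation p of 0.4, 0.7 and 0.3.

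**Figure D3:**
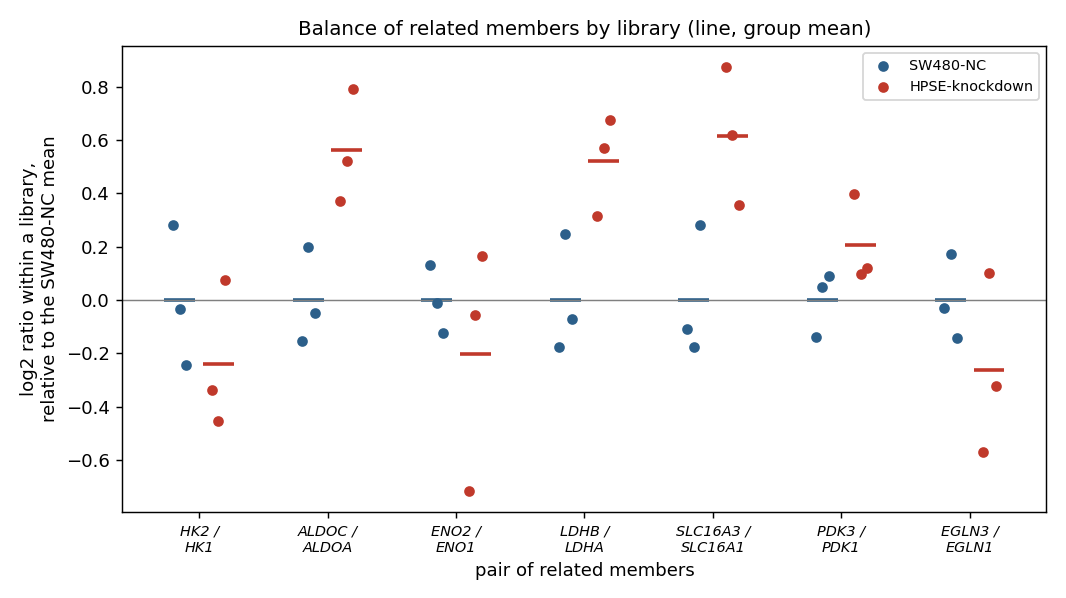
Log2 ratio of normalized counts of 7 pairs of isoenzymes or paralogs in each library, by group. The 3 knockdown points lie above the 3 control points for LDHB/LDHA, SLC16A3/SLC16A1, ALDOC/ALDOA and, only barely, PDK3/PDK1, and the groups overlap in the other pairs.

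The HIF target group had 14 of 19 genes with a row and 13 tested. Of these, 8 were above 0 and 5 below, with a median log2 difference of 0.13. Groups did not overlap for 3 (23.1%, near the 23.4% of all features), BNIP3L and CA9 higher and PFKFB3 lower. An unadjusted p under 0.05 was reached by 2 (15.4%, near the 16.2% of all features), BNIP3L and CA9, both higher. PFKFB4, CA12, BNIP3, KDM3A and HIF1A had no row of their own and were not analysed here, so the main oxygen-regulated alpha subunit was not measured.

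The regulators of metabolism came out on either side of 0. PFKFB3, which makes the fructose 2,6-bisphosphate that drives phosphofructokinase, was at 1787, 1693 and 1717 in the knockdown and 1894, 1992 and 1875 in SW480-NC. The groups did not overlap, and the log2 difference was −0.15 (SE 0.07; adjusted p = 0.359 by limma). PDK1 and PDK3, kinases that switch off pyruvate dehydrogenase, were at 1095 to 1324 against 1164 to 1328 and at 202 to 249.9 against 208 to 214, and both overlapped.

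BNIP3L (NIX), a mitochondrial receptor for mitophagy, was at 1192, 1202 and 1525 in the knockdown and 944, 1024 and 896 in SW480-NC. All knockdown libraries were above all controls, by 0.44 in log2 (SE 0.12; adjusted p = 0.144 by limma, and 0.0407 with DESeq2 to 0.302 over 18 alternatives, of which DESeq2 alone passed). CA9, the cell surface carbonic anhydrase used as a marker of hypoxic tumour, at chr9:35673856-35681159, was at 772, 721 and 862 in the knockdown and 681, 545 and 686 in SW480-NC. Its groups were apart by 0.30 in log2 (SE 0.13; adjusted p = 0.293 by limma), and by 0.20 without SW480-NC replicate 2. CA9 shares 643 of its exon bases with the antisense gene ARHGEF39, and BNIP3L shares 386 with PNMA2 or SDAD1P1. NDRG1, a stress-induced gene linked to differentiation, was at 1408, 1398 and 1769 and at 1212, 1103 and 1422, so the groups overlapped. The log2 difference was 0.29 (SE 0.13; adjusted p = 0.333 by limma), and 0.18 without knockdown replicate 3.

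Among the oxygen sensors, EGLN1 (PHD2), the main prolyl hydroxylase of HIF, was at 1468 to 1776 in the knockdown and 1450.5 to 1709 in SW480-NC. EGLN3 (PHD3), its inducible relative, was at 409, 611 and 550.2 and at 649, 735 and 509. EPAS1 (HIF2A), the other main alpha subunit, was at 2042, 2301 and 2003 in the knockdown and 3817, 2002 and 2280 in SW480-NC. SW480-NC replicate 1 stood above the other libraries, and the log2 difference of −0.30 (SE 0.22) became −0.017 without it. ARNT, the constitutive partner of both alpha subunits, was at 1357 to 1587 and 1332 to 1478. MXI1, a MYC antagonist, was at 1357 to 1572 and 1090.0 to 1414, also overlapping.

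The scarcer targets were the least precise. ANKRD37, a small ankyrin repeat protein, was at 53.8, 52.4 and 99.9 in the knockdown and 45.0, 65.7 and 46.7 in SW480-NC. ADM, the vasodilator peptide adrenomedullin, was at 186, 165 and 97.0 and at 145, 127 and 123. Their SEs were 0.30 and 0.25 in log2, against 0.07 for SLC2A1. ANGPTL4, a lipoprotein lipase inhibitor, lay between 3.16 and 13.2 and was not tested.

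The libraries of SW480-NC differed among themselves in the enzyme group. SW480-NC replicate 3 was the highest of the 3 control libraries for 14 of 17 enzymes, beside 36.6% of all features and 44% of those averaging at least 1000 normalized counts. Its median excess over the mean of the other two controls was 0.20 in log2, against 0.0091 over all features. The HIF target group did not share this, with 4 of 13 highest in that library. Summed over the 17 enzymes, the counts made up 1.18%, 1.21% and 1.15% of the knockdown libraries and 1.08%, 1.07% and 1.27% of SW480-NC. The knockdown libraries therefore lay between replicates 1 and 2 of the control and replicate 3.

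Each library was left out in turn. Without SW480-NC replicate 3, 8 members were higher at an unadjusted p under 0.05 (8.69% of all features), where 3 were with all libraries, and 4 were lower (8.46%). GAPDH, NDRG1, PGK1, PKM and TPI1 joined ALDOC, BNIP3L and CA9. TPI1 then differed by 0.53 in log2 (adjusted p = 0.0522) and PKM by 0.49 (adjusted p = 0.174), while SLC16A1 was at −0.57 (adjusted p = 0.0547), all by limma. Other controls moved them the other way, TPI1 to 0.21 without SW480-NC replicate 1 and 0.23 without replicate 2, and PKM to 0.12 without replicate 2. In the fit without SW480-NC replicate 3, 6 of 17 enzymes were wholly higher and 4 wholly lower than the remaining controls, beside 18.5% and 18.9% of all features. The enzyme median was then 0.081. That library was the highest control for most enzymes, so leaving it out raises their differences by itself. These counts, and the 8 members higher, are therefore no separate evidence. Shares of the abundant features were not taken for this fit. Without that library 0 members passed an adjusted p of 0.05 by limma (0.429% of all features). Leaving out any other library gave 2 to 4 members higher.

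**Figure D4:**
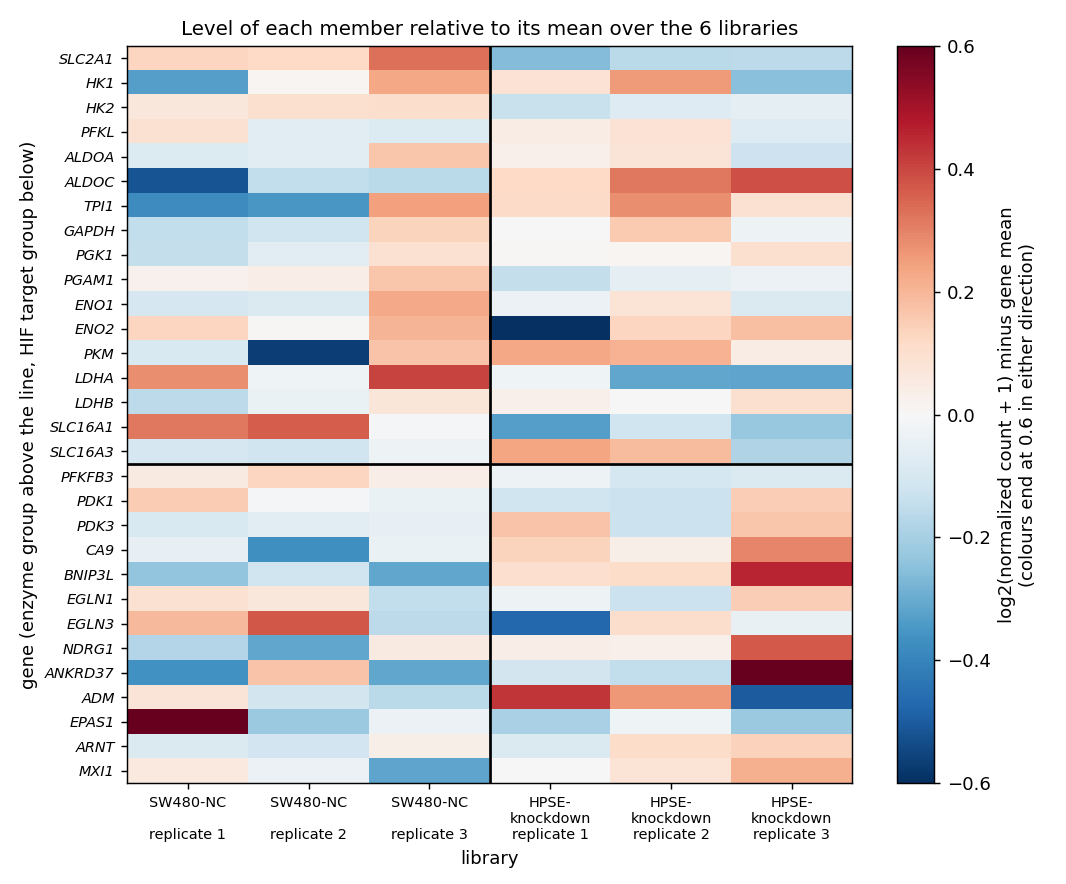
Each tested member in each library as log2(normalized count + 1) minus its mean over the 6 libraries, with colours ending at 0.6 in either direction and the enzyme group above the line. In SW480-NC replicate 3 most enzymes are above their mean, 14 of 17 being the highest of the controls, while SLC2A1, LDHA and SLC16A1 are mostly below their mean in the knockdown.

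The 5 further lists of the same metabolism were examined in the same fit, and 4 of their genes passed an adjusted p of 0.05 by limma (0.802% of all features). DESeq2 called 2 of the other isoenzymes, 1 of the pyruvate entry list, 1 of the pentose phosphate list, 2 of the further HIF targets and 1 of the oxygen sensing list, beside 3.48% of all features, and edgeR called SLC2A12 and DDIT4, beside 0.627%. Among 16 tested of 24 other glycolytic and glucose isoenzymes, 1 rose and 0 fell at adjusted p, with a median log2 difference of 0.19. At an unadjusted p under 0.05 by limma, 4 were higher and 1 lower (31.2%, beside 16.2% of all features). SLC2A12 (GLUT12), a facilitative glucose transporter, was at 448, 414 and 469 normalized counts in the knockdown and 256, 244 and 201 in SW480-NC, and rose by 0.93 in log2 (adjusted p = 0.0346 by limma). SLC2A12 shares 1736 of its 4468 exon bases with the antisense gene TBPL1, and strand-specific counting was not stated, so its reads cannot be assigned with certainty. LDHD, the D-lactate dehydrogenase of mitochondria, was at 43.2, 45.2 and 48.1 against 24.1, 18.4 and 22.3 (1.05 in log2, adjusted p = 0.106 by limma). SLC16A7 (MCT2) was at 421, 413 and 418 against 831, 2410 and 456, the control libraries spreading widely. SLC2A4 (GLUT4) was at 29.5, 22.6 and 30.1 against 7.32, 17.4 and 20.1. BSG (basigin), the chaperone of the lactate carriers, had a log2 difference of −0.14.

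Pyruvate entry into mitochondria had 12 genes, all tested, 1 risen and 0 fallen at adjusted p, with a median of 0.037. At an unadjusted p under 0.05 by limma, 2 were higher and 0 lower (16.7%, beside 16.2% of all features). PDK4, a pyruvate dehydrogenase kinase known from fasting, was at 124, 140.0 and 125 in the knockdown and 60.7, 66.6 and 68.9 in SW480-NC, and rose by 0.98 in log2 (adjusted p = 0.0423 by limma). PDK2 was at 835, 1092 and 1407 against 786, 783 and 812 (0.45 in log2, adjusted p = 0.268 by limma, and 0.27 without knockdown replicate 3). PDK2 shares 2113 of its 5481 exon bases with the antisense gene SAMD14. The phosphatase PDP2 and the pyruvate carrier subunit MPC2 had log2 differences of −0.24 and −0.11.

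In the pentose phosphate, glycogen and gluconeogenesis list, 0 of 16 tested passed the adjusted p by limma, and 3 passed the unadjusted p of 0.05 (18.8%, beside 16.2% of all features), 2 higher and 1 lower. PCK2, the mitochondrial phosphoenolpyruvate carboxykinase, was at 1370, 1544 and 1348 against 751, 960.0 and 1164 (0.59 in log2, adjusted p = 0.144 by limma). FBP2, the muscle fructose bisphosphatase, was at 15.8, 19.9 and 18.8 against 9.41, 2.90 and 4.24 and gave 1.68 in log2 with an SE of 0.51. RPIA and GBE1 had log2 differences of −0.24 and −0.17.

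Of 33 further HIF targets, 24 were tested, 1 rose and 0 fell at adjusted p, and the median was −0.02. At an unadjusted p under 0.05 by limma, 6 were higher and 4 lower (41.7%, beside 16.2% of all features). Groups did not overlap for 37.5%, beside 23.4% of all features. DDIT4 (REDD1), a stress-induced inhibitor of mTORC1, was at 2790.0, 2562 and 2323 against 1229, 1152 and 1232 and rose by 1.08 in log2 (adjusted p = 0.00577 by limma). DDIT4 shares 847 of its 2058 exon bases with the antisense gene DDIT4-AS1, so its reads cannot be assigned with certainty either. DDIT4 was also among the genes that the study picked from these libraries, so it is no independent evidence of a direction. AK4, a mitochondrial adenylate kinase, was at 5455, 2596 and 1808 in the knockdown and 6211, 6286 and 6770.2 in SW480-NC, lower in every knockdown library but with a wide spread (adjusted p = 0.187 by limma). PPFIA4, a liprin, was at 55.9, 120.1 and 106 against 35.6, 33.8 and 41.4, and ERO1A, an oxidase of the endoplasmic reticulum, had a log2 difference of −0.30.

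Of 16 genes of the oxygen sensing machinery, 11 were tested, and 0 rose and 1 fell at adjusted p. At an unadjusted p under 0.05 by limma, 0 were higher and 2 lower (18.2%, beside 16.2% of all features). HSP90AA1, the inducible HSP90 that chaperones HIF alpha, was at 60276, 64047 and 63470.3 in the knockdown and 74413, 76904 and 77649 in SW480-NC, and fell by 0.29 in log2 (adjusted p = 0.0435 by limma). Its relative HSP90AB1 had a log2 difference of −0.21 (adjusted p = 0.14 by limma). ELOB and USP20, which act on the VHL side of the pathway, had 0.17 and 0.15. SLC2A12, PDK4 and HSP90AA1 lost their call when any 1 library was left out.

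**Figure D5:**
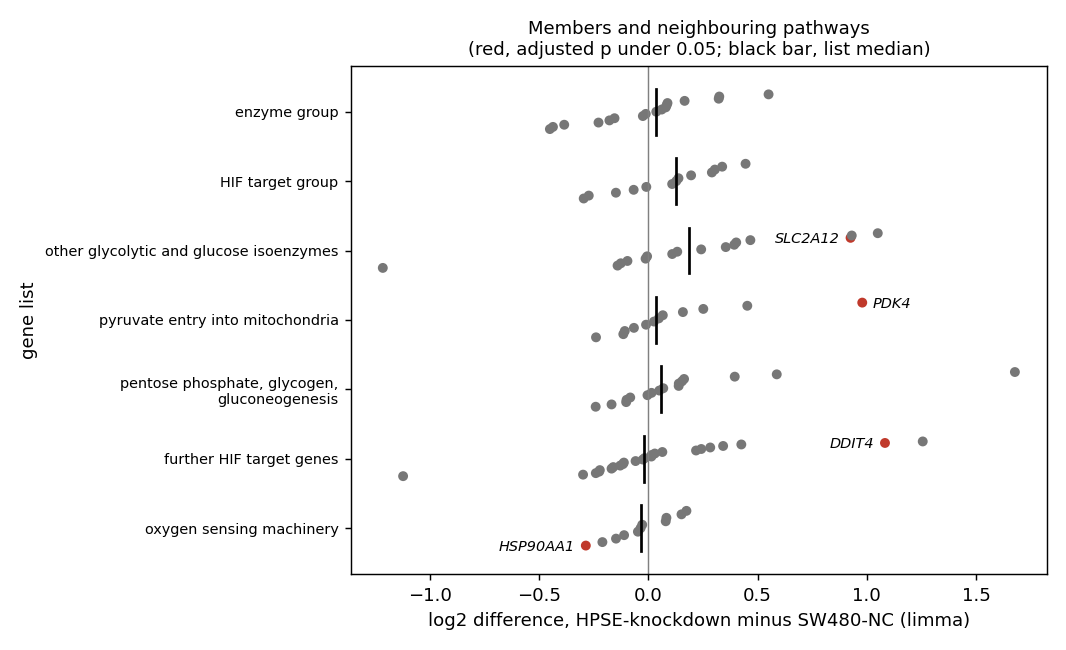
Log2 difference, HPSE-knockdown minus SW480-NC, of each tested gene in the 2 member groups and 5 neighbouring lists, with black bars for the list medians and red points for an adjusted p under 0.05 by limma. SLC2A12, PDK4, DDIT4 and HSP90AA1 are the 4 red points, and the list medians lie between −0.04 and 0.19.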

How the data were processed

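RNA of 3 HPSE-knockdown and 3 SW480-NC libraries was extracted with Trizol and prepared with a NEBNext Ultra kit. The submitters' processing notes name bcl2fastq, HISAT2, DESeq2 and GRCh38, and the study's methods name Cuffdiff; which counter and annotation made the table was not given in the sources used here. The deposited signal is a table of normalized counts, made by the authors as reads per gene divided by a size factor. All values were whole multiples of a step per library within 0.01 reads (100%), so whole reads were recovered. Of 59192 features, 33265 were assembler loci without a gene name, which can hold reads of genes lacking a row. 0 columns of per-sample values were left unused. A count of 0 allows up to 3 reads, for counting error only.

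Features averaging at least 10 normalized counts (21703) were tested with limma 3.58.1 in R 4.3.3 (intensity trend) on log2(normalized count + 1), which understates fold changes of low genes, with Benjamini-Hochberg adjustment over all of them. Ratios were tested with exact two-sided permutation tests (scipy 1.17.1). edgeR 4.0.16 and DESeq2 1.42.0 on recovered reads, other filters, pseudocounts, scalings and each library left out were alternatives. Scripts were tested on simulated data, where DESeq2 made a larger share of false calls than limma or edgeR. The simulation used gene variability estimated by edgeR and changes larger than that of any member. It therefore does not show how many of the calls on these data are false. Exon lengths and neighbours came from GENCODE 29, promoters from RefSeq. The exon length joins the exons of all annotated isoforms, so values per kilobase are not levels of molecules. Named were all members with a row, HPSE, and of each further list the genes under an adjusted p of 0.05 plus the 2 largest log2 differences each way. Members and lists were chosen with earlier results of these data known. Per the study's methods the replicates of a group came from independent experiments.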

Additional observations from a re-analysis of the deposited data

How the results depend on the processing

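Counts of members moved with some settings, and the cause was not tested. At adjusted p, 0 members became 1 after quantile normalization (SLC2A1), 2 with robust fitting and array weights (SLC2A1 and SLC16A1) and 4 with DESeq2 on recovered reads (those 2, ALDOC and BNIP3L), and stayed 0 with each library left out. At unadjusted p, the 3 higher members became 6 with no minimum and 5 with robust fitting, and 2 to 8 with 1 library left out, 8 being without SW480-NC replicate 3. The 5 lower members became 3 with no intensity trend, 3 with DESeq2 and 3 to 5 with 1 library left out, 3 being without SW480-NC replicate 2 or HPSE-knockdown replicate 1. With the replicate block, 0 members passed the adjusted p and 4 higher and 3 lower the unadjusted p; same-numbered libraries did not deviate together (r from −0.020 to 0.0074), so they share only a number. Medians ranged from −0.06 to 0.08 (enzymes) and 0.07 to 0.13 (HIF targets) with 1 library left out.

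Of 540 member values under alternatives, 16 changed sign, all in members near 0 or led by 1 library. ALDOA became 0.016 after quantile normalization and 0.023 with robust fitting, ENO1 0.0090 with robust fitting and EGLN1 0.0090 after quantile normalization. With 1 library left out, HK1 ran from −0.090 to 0.20, ALDOA from −0.056 to 0.069, ENO1 from −0.083 to 0.081, ENO2 from −0.38 to 0.040, EGLN1 from −0.085 to 0.052 and ADM from −0.055 to 0.41. Of 49 ratio values under another pseudocount or with 1 library left out, 1 changed sign, ENO2/ENO1 from −0.20 to 0.054 without HPSE-knockdown replicate 1. Depth limits SLC2A3 and ANGPTL4, which were too scarce to test.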
